A study of Arabidopsis thaliana with 24 samples.

Results

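A set of 10 cuticular wax genes, out of 28775 genes in the table, was followed through shoots of *Arabidopsis thaliana*. *KCS1* was chosen by its measured values, which were lower in *nrt1.13* than in wild type, so its differences between the genotypes are given as a description with no test. The other 9, *KCS2*, *CER6*, *CER1*, *CER2*, *CER3*, *CER4*, *WSD1*, *MAH1* and *MYB96*, were named for their known functions in the same pathway, and all 10 loci were found in the table. The shoots came from the wild type Col-0 and from *nrt1.13*, a single T-DNA line with its insertion in the fourth exon of *NRT1.13*, a member of the NRT1 family. Plants of both genotypes were grown hydroponically on 2 mM KNO3 (normal nitrate) or 0.2 mM KNO3 (low nitrate, with KCl making up the potassium). Shoots were harvested at 16 or 25 days, which the study counts in places from sowing and in places from germination. Polyadenylated RNA of 1 plant made 1 library, and the 24 libraries form 8 groups of 3 plants. The reads behind the values ranged from 23608279 to 46155689 per library with a median of 35030938, and the shallowest library was replicate 2 of *nrt1.13* at 0.2 mM and 25 days.

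The cuticle that seals the aerial epidermis consists of a cutin polyester covered and filled by waxes. Epidermal cells elongate fatty acids to very long chains in the endoplasmic reticulum, where a ketoacyl-CoA synthase (KCS) carries out the first and rate-limiting step of each round. The acyl chains then enter either an alkane-forming branch, which supplies most of the wax of *Arabidopsis* stems and leaves, or an alcohol-forming branch, which ends in primary alcohols and wax esters. In leaves the alkanes increase under drought and abscisic acid (ABA), a response in which the R2R3-type factor MYB96 takes part.

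Among the elongation genes, *KCS1* (AT1G01120, chr1:57164-59215 on the minus strand of TAIR10.1) encodes a ketoacyl-CoA synthase that accepts a broad range of chain lengths. *KCS2* (AT1G04220, chr1:1119699-1122786, minus strand) encodes a synthase known for both wax and root suberin. *CER6* (AT1G68530, chr1:25712414-25715024, minus strand) encodes the main synthase of wax precursors in the shoot, and *CER2* (AT4G24510, chr4:12660687-12662656, plus strand) a BAHD-type protein that lets CER6 make the longest chains. In the alkane branch, *CER1* (AT1G02205, chr1:418416-422579, plus strand) and *CER3* (AT5G57800, chr5:23420184-23424117, plus strand) encode the 2 partner proteins that together form alkanes. *MAH1* (AT1G57750, chr1:21383812-21385709, minus strand) encodes the cytochrome P450 that oxidises alkanes to secondary alcohols and ketones, known from stems. In the alcohol branch, *CER4* (AT4G33790, chr4:16204096-16207956, minus strand) encodes a fatty acyl-CoA reductase and *WSD1* (AT5G37300, chr5:14767426-14770396, plus strand) a wax ester synthase. *MYB96* (AT5G62470, chr5:25078991-25081141, minus strand) encodes the regulator.

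The 250 bases before the annotated start of *KCS1*, *CER1* and *CER3* are shown because these genes carry the differences described next, and because *CER1* and *CER3* act in the same step and moved apart. They were read from the RefSeq TAIR10.1 genome at chr1:59216-59465 (minus strand), chr1:418166-418415 (plus strand) and chr5:23419934-23420183 (plus strand), and each is written 5′ to 3′ on the strand of its gene. Capitals mark matches, on either strand, to the ABRE core ACGTG and to the MYB core sequences CNGTTA and CNGTTG.
KCS1: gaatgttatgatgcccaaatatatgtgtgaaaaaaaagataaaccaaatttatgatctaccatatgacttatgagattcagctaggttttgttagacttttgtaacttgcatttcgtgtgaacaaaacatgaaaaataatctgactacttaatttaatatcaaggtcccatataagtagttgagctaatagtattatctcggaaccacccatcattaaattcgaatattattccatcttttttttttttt
CER1: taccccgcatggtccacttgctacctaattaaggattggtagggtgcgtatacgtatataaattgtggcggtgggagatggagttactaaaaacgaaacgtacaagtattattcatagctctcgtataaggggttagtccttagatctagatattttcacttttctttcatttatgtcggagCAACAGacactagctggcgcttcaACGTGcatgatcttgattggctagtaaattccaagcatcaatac
CER3: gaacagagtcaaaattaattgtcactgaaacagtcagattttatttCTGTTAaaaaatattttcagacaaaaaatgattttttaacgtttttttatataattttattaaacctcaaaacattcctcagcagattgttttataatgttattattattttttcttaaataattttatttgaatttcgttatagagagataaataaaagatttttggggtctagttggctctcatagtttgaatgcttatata
No searched motif was found in the window of *KCS1*. *CER1* held CNGTTG on the other strand at bases -68 to -63 and ACGTG at -44 to -40, counted back from the annotated start, and *CER3* held CNGTTA at -204 to -199. ACGTG was present in 4 of the 10 windows (*CER6*, *CER1*, *CER2* and *CER4*, with 4 matches in *CER6*) and in 22.9% of 27443 windows of the same length. CNGTTA was present in 3 of the 10 (*KCS2*, *CER3* and *MAH1*) against 26.6% of all windows, and CNGTTG in 3 of the 10 (*KCS2*, *CER1* and *WSD1*) against 20.3%. In *KCS2* a match to CNGTTA on the other strand and a match to CNGTTG overlapped. The L1 box TAAATGCA, known from genes of the epidermal layer, was found in *MYB96* and in 1.57% of all windows. Its form TAAATGTA (3.0% of all windows) and the GCC box GCCGCC (1.87%) were in none of the 10. These are matches of letters, and binding was not measured.

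Levels were compared between genes as CPM per kb of exon, where CPM is the authors' scaled read count per gene. The length merged the exons of all annotated transcripts of a gene, with 3593 bases for *CER1* and 2589 for *CER3*. The order and the size of ratios between genes depend on these lengths. *CER6* was the highest at 112.5 CPM per kb on average over the 24 libraries (range 102 to 134.4), and its range did not overlap that of any other of these genes. *CER1* followed at 54.0 (35.5 to 71.6), then *KCS1* at 35.1 (26.4 to 49.8), *CER2* at 25.7 (23.3 to 30.9) and *CER3* at 24.3 (19.1 to 34.6). The ranges of these 4 neighbours overlapped from each to the next. *MYB96* at 4.09 (2.63 to 5.21) and *KCS2* at 2.46 (1.28 to 3.79) stood lower and overlapped each other, and neither reached *CER3*. *WSD1* at 0.986 (0.443 to 1.66) overlapped *KCS2* and *CER4*, which was at 0.430 (0 to 1.42). *MAH1* was last at 0.0191 (0 to 0.0903). In the alkane branch, *CER1* and *CER3* were thus higher than both genes of the alcohol branch in every library, and *MAH1* was near the detection limit.

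The 15108 genes that reached a CPM of 2 in every library were tested, and 2 CPM corresponded to between 45.5 and 90.8 reads. Among the wax genes, 7 of 10 passed this filter, and *CER4*, *WSD1* and *MAH1* did not. Values were fitted as log2(CPM + 0.1) with limma, and a gene was called where the Benjamini-Hochberg (BH) adjusted *P*, taken over all 15108, did not exceed 0.05. The fitted fold-changes (FC) understate the change of low genes. *NRT1.13* (AT1G33440) averaged 8.38 CPM in wild type and 3.71 CPM in *nrt1.13* (log2 FC -1.18, SE 0.10, adjusted *P* = 9.55e-09 from limma), and it was lower in all 4 conditions. Of 9 epidermis markers all passed the filter, and 5 green shoot markers summed to 25010 to 31400 CPM. Of 7 root markers 6 were at or below 0.787 CPM in every library, and SCR, which shoots also express, was at 30.2 to 37.2 CPM. RNA of whole shoots does not separate fewer epidermal cells from less RNA per cell.

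**Figure D1:**
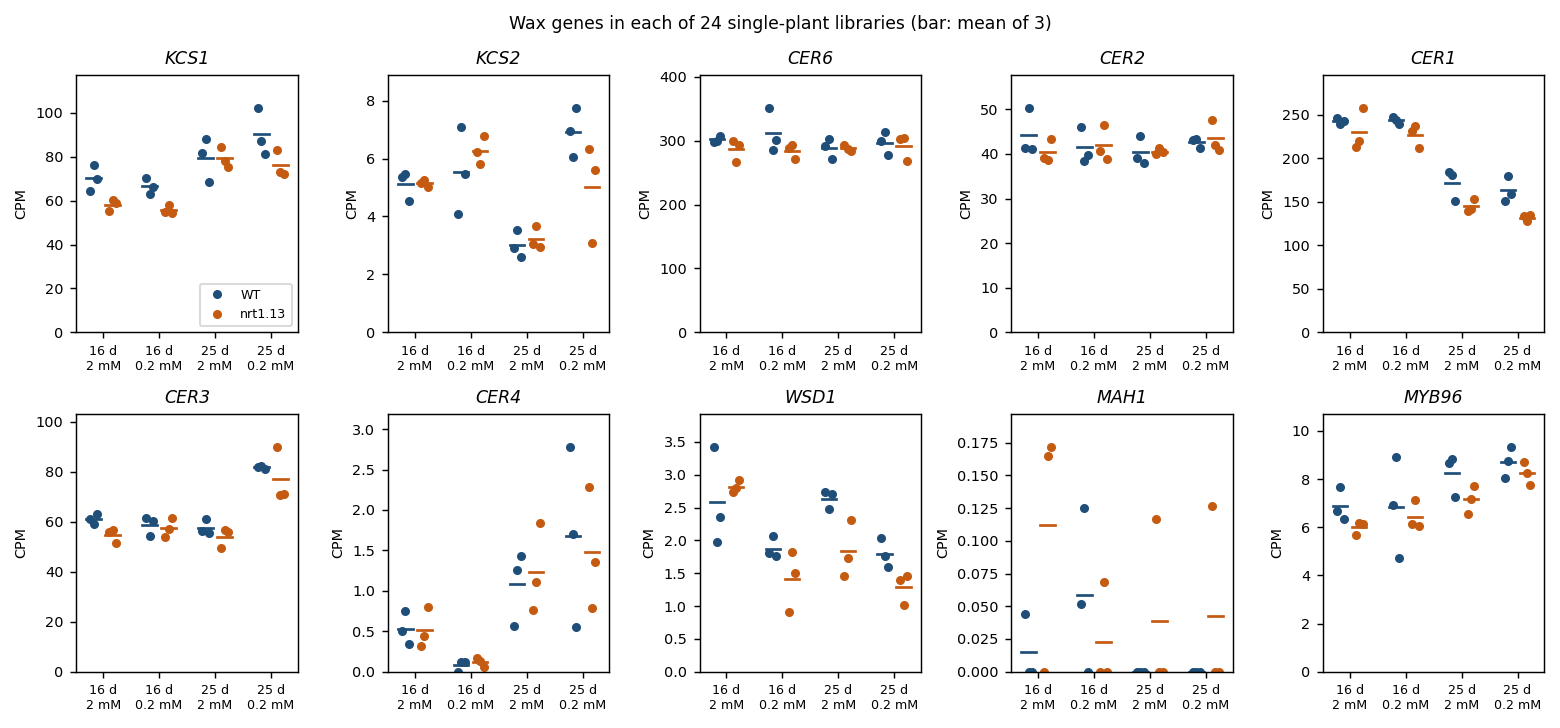
CPM of the 10 wax genes (vertical axes, each starting at 0) in every library, by day and KNO3 supply, with wild type (WT) in blue and *nrt1.13* in orange, points for single plants and bars for the mean of 3. *CER1* was lower in all plants at 25 days, *CER3* was highest in the plants at 25 days on 0.2 mM, and *CER6* and *CER2* stayed within 266 to 351 and 38.0 to 50.2 CPM.

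From 16 to 25 days, *CER1* fell and *KCS1* rose, *MYB96* and *CER3* rose by less, and *KCS2* fell, while *CER6* and *CER2* were not called. In wild type at 2 mM, *CER1* was at 245.9, 239.6 and 242.0 CPM at 16 days and at 183.6, 180.5 and 151.0 CPM at 25 days. In wild type at 0.2 mM it went from 246.6, 243.8 and 239.1 CPM to 150.2, 179.6 and 159.4 CPM. In *nrt1.13* it went from 213.1, 219.7 and 257.3 CPM to 139.1, 141.3 and 153.0 CPM at 2 mM, and from 231.4, 236.6 and 211.1 CPM to 133.0, 127.6 and 134.4 CPM at 0.2 mM. All 12 plants at 25 days lay below all 12 plants at 16 days. The fitted *CER1* difference, averaged over genotype and nitrate, was a log2 FC of -0.63 with an SE of 0.04 (limma, BH adjusted *P* = 2.63e-13), with -0.50 to -0.78 in the 4 combinations, each called.

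*KCS1* moved the other way. At 2 mM it was at 64.2, 76.4 and 70.0 CPM in wild type at 16 days and at 81.9, 88.2 and 68.5 CPM at 25 days. At 0.2 mM the wild-type plants went from 70.4, 63.1 and 66.4 CPM to 102.2, 87.1 and 81.2 CPM. In *nrt1.13* they went from 55.5, 60.2 and 59.0 CPM to 84.4, 77.9 and 75.5 CPM at 2 mM. On 0.2 mM the *nrt1.13* plants went from 54.7, 58.0 and 54.2 CPM to 83.1, 73.2 and 72.0 CPM. The days overlapped only in wild type at 2 mM, where 1 plant of 25 days lay among those of 16 days. The averaged log2 FC was 0.37 with an SE of 0.04 (limma, adjusted *P* = 4.89e-08). It was called in *nrt1.13* at both supplies (0.44 at 2 mM and 0.45 at 0.2 mM) and in wild type at 0.2 mM (0.43), and was 0.18 in wild type at 2 mM (adjusted *P* = 0.252, limma). The calls within a genotype are not independent of the choice of *KCS1*, whose *nrt1.13* values were lowest at 16 days. Whether the rise of *KCS1* with age differed between the genotypes was not tested, because the genotype values chose the gene.

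*MYB96* averaged 5.997 to 6.89 CPM in the 4 groups at 16 days and 7.15 to 8.71 CPM at 25 days, a log2 difference of 0.31 (SE 0.07, adjusted *P* = 0.000769 from limma). It was called at 0.2 mM in wild type (0.39, adjusted *P* = 0.0307) and in *nrt1.13* (0.36, adjusted *P* = 0.0482), and was 0.26 and 0.25 at 2 mM, not called. *KCS2* fell at 2 mM, from 5.12 to 3.02 CPM in wild type and from 5.15 to 3.22 CPM in *nrt1.13* (log2 -0.75 and -0.67, adjusted *P* = 0.0195 and 0.0309, limma), with no overlap of the days. At 0.2 mM its differences were 0.34 in wild type and -0.38 in *nrt1.13*, neither called. *CER3* rose at 0.2 mM by 0.48 in wild type and 0.41 in *nrt1.13* and was at -0.08 and -0.02 at 2 mM. *CER6* differed by -0.02 (95% interval -0.09 to 0.05) and *CER2* by -0.01 (-0.09 to 0.08), neither of them called.

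Of the 7 genes tested, 5 were called between the days, 3 higher and 2 lower. Over all 15108 genes, 62.0% were called, 25.3% higher and 36.7% lower, so the share among the wax genes was near the background. Within wild type the count was 4 of 7 at 0.2 mM (54.3% of all genes) and 2 of 7 at 2 mM (7.02%). Within *nrt1.13* it was 4 of 7 at 0.2 mM (50.7%) and 3 of 7 at 2 mM (9.70%). Each of these counts but that of wild type at 2 mM includes *KCS1*, whose calls within a genotype are not independent of its choice. In this averaged contrast none of the 7 reached an FC of 1.8, the limit used in the study, which 1.01% of all genes passed at an unadjusted *P* of at most 0.05. The 3 plants of each day did not overlap for 58.3% of genes in wild type and 50.2% in *nrt1.13* at 0.2 mM, and for 30.8% and 35.0% at 2 mM. The 9 epidermis markers summed to 1895 to 2152 CPM at 16 days and 1586 to 1902 CPM at 25 days, with 5 of 9 lower, 1 higher and a median log2 difference of -0.14. LTP1, at 798.5 to 1199 CPM over all libraries, was the largest part of each sum. The part of these markers in the fall of *CER1* was not tested.

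**Figure D2:**
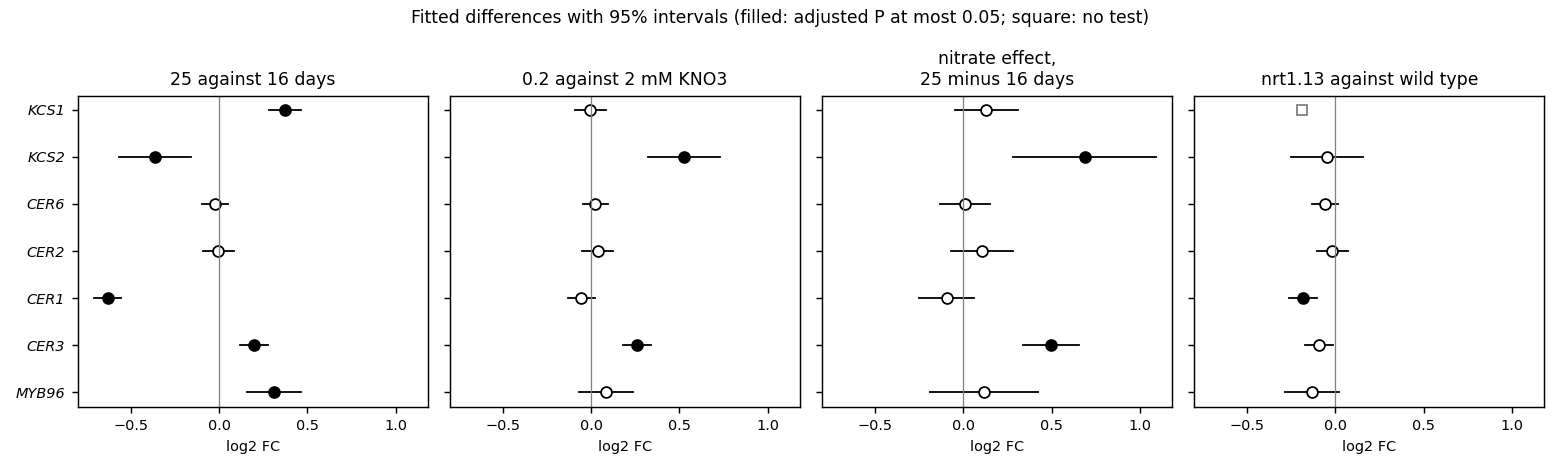
Fitted log2 FC of the 7 wax genes above the CPM filter (horizontal axes) for 4 contrasts averaged over the other factors, with 95% intervals as lines, filled points for an adjusted *P* of at most 0.05 and a grey square for *KCS1* between the genotypes, which was not tested. The day contrast ran from -0.63 (*CER1*) to 0.37 (*KCS1*), and the change of the nitrate effect was called for *KCS2* (0.69) and *CER3* (0.50).

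On low nitrate, *CER3* and *KCS2* were higher at 25 days, and neither was called at 16 days. *CER3* was at 56.2, 61.2 and 55.4 CPM in wild type at 25 days on 2 mM and at 82.0, 82.3 and 80.9 CPM on 0.2 mM. In *nrt1.13* at 25 days the values were 49.5, 56.5 and 55.9 CPM on 2 mM and 89.6, 70.7 and 71.1 CPM on 0.2 mM. In both genotypes every plant on 0.2 mM lay above every plant on 2 mM. At 16 days, wild type had 60.9, 59.0 and 62.9 CPM on 2 mM and 61.5, 54.4 and 60.4 CPM on 0.2 mM, and *nrt1.13* had 55.7, 56.7 and 51.6 CPM and 54.0, 57.2 and 61.5 CPM, so that the supplies overlapped. The log2 difference between 0.2 and 2 mM at 25 days was 0.51 in wild type (SE 0.08, adjusted *P* = 9.65e-06 from limma) and 0.51 in *nrt1.13* (adjusted *P* = 9.5e-06). At 16 days it was -0.05 and 0.07. The change of the nitrate effect between the days, tested directly, was 0.50 (SE 0.08, adjusted *P* = 9.71e-06) on average, 0.56 in wild type and 0.43 in *nrt1.13*, both called. The difference between the genotypes in it was not called (*nrt1.13* minus wild type -0.12, 95% interval -0.44 to 0.20).

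*KCS2* was at 2.90, 3.53 and 2.61 CPM in wild type at 25 days on 2 mM and at 6.93, 6.05 and 7.74 CPM on 0.2 mM, a log2 difference of 1.17 (SE 0.20, adjusted *P* = 3.26e-05 from limma). In *nrt1.13* at 25 days it was at 3.06, 3.66 and 2.94 CPM on 2 mM and at 6.34, 3.08 and 5.59 CPM on 0.2 mM, a difference of 0.56 (adjusted *P* = 0.0247). The supplies overlapped there through the plant of the shallowest library, which was at 3.08 CPM. At 16 days the differences were 0.08 in wild type and 0.28 in *nrt1.13*, neither called, although the *nrt1.13* plants on 0.2 mM (5.82 to 6.77 CPM) all lay above those on 2 mM (5.03 to 5.25 CPM). The change of the nitrate effect between the days averaged 0.69 (SE 0.20, adjusted *P* = 0.00568), with 1.09 in wild type (adjusted *P* = 0.00372) and 0.29 in *nrt1.13* (adjusted *P* = 0.471). The difference between these genotype values was -0.80 (95% interval -1.62 to 0.01, adjusted *P* = 0.997 from limma, unadjusted *P* = 0.0524) and was not called.

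The other 5 tested genes were not called for nitrate at either day, and *KCS1* in wild type at 25 days came nearest (log2 FC 0.18, adjusted *P* = 0.101, limma). The nitrate values of *KCS1* within a genotype are not independent of its choice, and the counts of 7 within a genotype include it. The averaged differences of these 5 genes lay between -0.06 (*CER1*) and 0.08 (*MYB96*), and that of *KCS1* was 0.00 (95% interval -0.09 to 0.09). The count was 2 of 7 genes averaged over the days, both higher, against 41.7% of all genes called and 21.6% called higher. At 25 days it was 2 of 7 in wild type (39.0% of all genes) and 2 of 7 in *nrt1.13* (40.0%). At 16 days limma called 0 of 7 in wild type (6.20% of all genes) and 0 of 7 in *nrt1.13* (2.83%), with 0 at an unadjusted *P* below 0.05 in either. The change between the days was called for 2 of 7, both higher, against 47.1% of all genes and 21.7% higher. Within wild type that background was 33.2% and within *nrt1.13* 29.1%, and the difference between the genotypes in it was called for 0.00% of all genes. The groups of the 2 supplies did not overlap for 52.8% of genes in wild type and 46.1% in *nrt1.13* at 25 days, and for 26.3% and 26.7% at 16 days. At an FC of 1.8 none of the 7 passed in the averaged nitrate contrast (0.437% of all genes) or in the averaged change between the days (3.33%), while *KCS2* in wild type passed it for nitrate at 25 days (2.25-fold) and for the change between the days (2.13-fold). The count of wax genes was thus not above the background for nitrate. The 9 epidermis markers at 25 days summed to 1640 to 1760 CPM on 2 mM and 1827 to 1902 CPM on 0.2 mM in wild type, and to 1586 to 1661 and 1696 to 1829 CPM in *nrt1.13*, and at 16 days the supplies overlapped. LTP1 was the largest part of these sums. The median log2 difference of the 9 markers at 25 days was 0.04 in wild type, with 1 called. In *nrt1.13* it was 0.03, with 2 called. Averaged over the days, LTP1 (0.15) was called higher and GL2 (-0.20) lower among the 9 markers. The part of these markers in the values of *CER3* and *KCS2* was not tested.

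The study made its libraries with a stranded mRNA kit, but the sources used here do not state whether reads were counted by strand. *KCS2* overlaps 2 annotated genes on the other strand. It shares 41 bases with AT1G04210, which was itself higher on 0.2 mM at 25 days, by 0.37 in wild type and 0.33 in *nrt1.13* on the log2 scale (adjusted *P* = 6.71e-05 and 0.000286, limma). A long non-coding gene, AT1G04247, lies over 2302 bases of *KCS2* and was not analysed here. The part of these genes in the values of *KCS2* was not tested, and AT1G04210 was looked at after the *KCS2* values were seen. *CER2* shares 96 bases with AT4G24520 and 316 with a long non-coding gene, AT4G07275, not analysed here. The other 8 have no such overlap. Of the 50-base stretches of their exons, 0.206% in *KCS2* and 0.244% in *MYB96* were found elsewhere in the genome, on either strand. In the others no such stretch was found.

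Because *CER1* and *CER3* work as partners, the ratio of their CPM per kb was taken within each plant, which removes the scaling of the library. It was chosen after the values were seen and is given with no test. At 16 days it averaged 2.87 in wild type and 3.05 in *nrt1.13* on 2 mM, and 2.99 and 2.85 on 0.2 mM, with single plants between 2.48 and 3.59. At 25 days on 2 mM it averaged 2.15 ± 0.19 (SD, n = 3) in wild type and 1.93 ± 0.12 in *nrt1.13*. At 25 days on 0.2 mM it averaged 1.44 ± 0.13 and 1.24 ± 0.15. The plants thus fell into 3 levels that did not overlap, with 2.48 the lowest at 16 days, 1.803 to 2.35 at 25 days on 2 mM and 1.07 to 1.57 at 25 days on 0.2 mM.

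**Figure D3:**
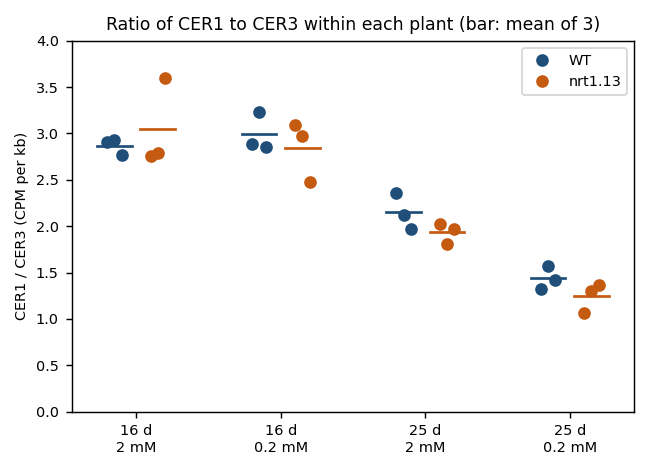
Ratio of *CER1* to *CER3* in CPM per kb (vertical axis, no unit) within each plant, by day and KNO3 supply, with wild type (WT) in blue, *nrt1.13* in orange and bars for the mean of 3. The ratio was 2.48 or more at 16 days, 1.803 to 2.35 at 25 days on 2 mM and 1.07 to 1.57 at 25 days on 0.2 mM.

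In the alcohol branch, *CER4* was higher in the older plants and *WSD1* was lower on low nitrate. Both lay below the filter, *CER4* under a CPM of 2 in 22 libraries (0 to 86 reads) and *WSD1* in 13 (23 to 155 reads). For these genes and *MAH1*, plants were permuted within the 4 combinations of the other factors in an exact two-sided test, over 160000 arrangements with a smallest *P* of 1.25e-05. The 9 *P* values are not adjusted, and the adjusted *P* of a limma fit of all 25547 genes with reads is given beside them.

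*CER4* at 16 days was at 0.507, 0.747 and 0.345 CPM in wild type and 0.312, 0.439 and 0.7998 CPM in *nrt1.13* on 2 mM. On 0.2 mM it was at 0, 0.125 and 0.114 CPM and at 0.171, 0.137 and 0.0548 CPM. At 25 days it was at 0.569, 1.25 and 1.43 CPM in wild type and 0.759, 1.11 and 1.84 CPM in *nrt1.13* on 2 mM. On 0.2 mM at 25 days the plants of a group were widely spread, at 2.77, 1.71 and 0.551 CPM and at 2.28, 0.792 and 1.35 CPM. The mean rose from 0.313 CPM over the 12 plants of 16 days to 1.37 CPM over those of 25 days, 4.38-fold, and was higher in 4 of 4 combinations (exact *P* = 5e-05, adjusted *P* in the unfiltered limma fit 2.4e-06, with 41.7% of all genes called there). The days did not overlap on 0.2 mM in either genotype and overlapped on 2 mM. *CER4* was lower on 0.2 mM than on 2 mM at 16 days without overlap in both genotypes, and the supplies overlapped at 25 days. This change of the nitrate effect between the days was 1.97 on the log2 scale in the unfiltered fit (SE 0.51, adjusted *P* = 0.00568, 28.2% of all genes called). Averaged over the days, the nitrate difference of *CER4* was -0.67 (exact *P* = 0.0655).

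*WSD1* averaged 2.47 CPM over the 12 plants on 2 mM and 1.59 CPM over the 12 on 0.2 mM, lower in 4 of 4 combinations (log2 -0.60, exact *P* = 5e-05, unfiltered adjusted *P* = 0.000519, 25.5% of all genes called). In *nrt1.13* at 16 days the values were 2.74, 2.80 and 2.91 CPM on 2 mM and 0.913, 1.82 and 1.51 CPM on 0.2 mM. In wild type at 16 days they were 3.41, 1.98 and 2.36 CPM and 1.802, 2.06 and 1.76 CPM. At 25 days the wild-type plants had 2.73, 2.48 and 2.70 CPM on 2 mM and 2.03, 1.77 and 1.6 CPM on 0.2 mM, and the *nrt1.13* plants 1.46, 1.73 and 2.31 CPM and 1.40, 1.01 and 1.46 CPM. The supplies did not overlap in *nrt1.13* at 16 days and in wild type at 25 days. A difference of *WSD1* between the days was not shown by this test (-0.18, exact *P* = 0.156). *MAH1* had 0 reads in 16 of 24 libraries, at most 6 reads in a library and 30 in all. Its other counts were 2, 4 or 6 reads, all even, and the study sequenced read pairs. Over all genes, 45.2% to 47.8% of the counts above 0 in a library were odd. Whether both reads of each pair were counted for *MAH1* is therefore not known. Where both reads of a pair are counted, 3 reads (0.0661 to 0.132 CPM, counting error only) are too low a limit for a count of 0. The number of libraries above such a limit is therefore not given. No difference in *MAH1* was detectable at this depth (exact *P* = 0.184, 0.75 and 0.169 for genotype, nitrate and day).

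Between the genotypes, *CER1* was lower in *nrt1.13* over the 4 conditions, with a log2 FC of -0.18 and an SE of 0.04 (limma, adjusted *P* = 0.00839). Its means in wild type and *nrt1.13* were 243 and 226 CPM at 16 days on 0.2 mM, 242 and 230.1 CPM at 16 days on 2 mM, 172 and 144 CPM at 25 days on 2 mM, and 163 and 132 CPM at 25 days on 0.2 mM. All 3 *nrt1.13* plants were below all 3 wild-type plants on 0.2 mM at both days, and the genotypes overlapped on 2 mM at both days. The log2 differences within a condition were -0.10 and -0.30 on 0.2 mM at 16 and 25 days and -0.08 and -0.24 on 2 mM, none called. The difference at 25 days minus that at 16 days was -0.18 (unadjusted *P* = 0.0234, adjusted *P* = 0.941, limma), so a stronger effect in older plants was not shown.

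*KCS1*, chosen for this pattern, averaged 70.2 ± 6.09 CPM (SD, n = 3) in wild type and 58.2 ± 2.44 CPM in *nrt1.13* at 16 days on 2 mM, and 66.6 ± 3.66 CPM and 55.7 ± 2.07 CPM on 0.2 mM. Neither comparison overlapped. At 25 days on 0.2 mM it averaged 90.2 ± 10.8 CPM and 76.1 ± 6.10 CPM, with 1 *nrt1.13* plant (83.1 CPM) above the lowest wild-type plant (81.2 CPM). At 25 days on 2 mM it averaged 79.6 ± 10.04 CPM and 79.2 ± 4.58 CPM. The log2 differences were -0.27, -0.26, -0.24 and 0.00 in this order. In order of level, the groups ran from wild type at 25 days on 0.2 mM, through the other groups of 25 days and the wild-type groups of 16 days, to the *nrt1.13* groups of 16 days. Each group overlapped the next in this order, except that the *nrt1.13* plants of 16 days (at most 60.2 CPM) all lay below the wild-type plants of 16 days (at least 63.1 CPM).

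The remaining tested genes were not called between the genotypes. *CER3* was at -0.09 (unadjusted *P* = 0.024, adjusted *P* = 0.257, limma), *MYB96* at -0.13, *CER6* at -0.06, *KCS2* at -0.05 and *CER2* at -0.02. Leaving out replicate 1 of *nrt1.13* at 0.2 mM and 25 days, which had the highest *CER3* value of all plants, made *CER3* a call (-0.12, adjusted *P* = 0.0339, limma). *WSD1* averaged 2.22 CPM in wild type and 1.84 CPM in *nrt1.13*, lower in 3 of 4 conditions (log2 -0.31, exact *P* = 0.0164, unfiltered adjusted *P* = 0.261, 1.00% of all genes called there). *CER4* was at 0.843 and 0.838 CPM (exact *P* = 0.68). In all, 1 of 6 tested genes was called, against 1.70% of all genes called and 0.682% called lower, and none passed an FC of 1.8 (0.0265% of all genes).

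Within single conditions limma called 0 of 6 genes in each. The background was 0.132% of all genes on 0.2 mM at 16 days, 0.258% on 0.2 mM at 25 days, 0.0728% on 2 mM at 16 days and 0.0860% on 2 mM at 25 days. At an unadjusted *P* below 0.05 there were 2 on 0.2 mM at 25 days (*CER1* and *KCS2*), 1 on 2 mM at 25 days (*CER1*) and 0 at 16 days. The 3 plants of each genotype did not overlap for 12.5% of genes on 0.2 mM and 15.7% on 2 mM at 16 days, and for 7.54% and 15.6% at 25 days. Besides *CER1* and *KCS1*, all *nrt1.13* plants lay below all wild-type plants for *CER3* and *MYB96* on 2 mM at 16 days. The same held for *WSD1* on both supplies at 25 days. *KCS2*, *CER6*, *CER2*, *CER4* and *MAH1* overlapped in every condition. The interaction of genotype with nitrate was called for 0 of 6 (0.00% of all genes, 3.36% at an unadjusted *P*, 0 of the 6 by that *P*). The interaction with day was called for 0 of 6 (0.0794% of all genes, 4.86% at an unadjusted *P*, 1 of the 6 by that *P*), and edgeR and DESeq2 called 0 in both. The 8 flower and inflorescence markers, all below the filter, had lower sums in *nrt1.13* than in wild type in every condition, without overlap. At 16 days they summed to 5.83 to 11.4 CPM in wild type and 3.49 to 4.11 CPM in *nrt1.13* on 2 mM. On 0.2 mM at 16 days the sums were 3.27 to 4.71 and 2.99 to 3.22 CPM. At 25 days they were 6.23 to 10.01 and 2.75 to 3.23 CPM on 2 mM. On 0.2 mM at 25 days they were 3.74 to 7.48 and 1.52 to 1.69 CPM. Of these markers, AP1, LFY, AP3, PI and CAL were at 0 in at least 1 library and AG, SEP3 and SEP1 in none. The 9 epidermis markers gave a median log2 FC of -0.05 between the genotypes, with 0 called. LTP1 was the largest part of their sum. That sum at 16 days on 2 mM was 2044 to 2152 CPM in wild type and 1895 to 1997 CPM in *nrt1.13*, without overlap. On 2 mM at 25 days it was 1640 to 1760 and 1586 to 1661 CPM, on 0.2 mM at 25 days 1827 to 1902 and 1696 to 1829 CPM, and on 0.2 mM at 16 days 2065 to 2131 and 1985 to 2135 CPM, each with overlap. The part of both marker lists in the genotype values of *CER1* and *KCS1* was not tested.

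The rest of the pathway was read from lists of related genes, and called genes are named up to 3 in each direction. Among the other KCS genes, 12 of 18 were tested, and with age *KCS12* (0.44) and *KCS9* (0.22) rose and *KCS19* (-0.60) and *KCS5* (-0.20) fell. Of 15 tested genes among 16 for wax synthesis and export, *CER7*, an exosome ribonuclease known from its wax mutant, rose (0.33) and 6 fell. The largest falls were those of *CER26-like* (-0.44), *CER26* (-0.37), both relatives of *CER2*, and of the lipid transfer protein gene *LTPG2* (-0.26). Of 8 tested regulators among 11, *MYB30* (0.13) and *HDG1* (0.08) rose and 5 fell, led by *MYB106* (-0.73), *MYB94* (-0.35), the closest relative of *MYB96*, and *MYB16* (-0.31). All 12 genes for cutin synthesis were tested, 9 fell and 0 rose, against 36.7% of all genes lower and 25.3% higher with age, with *CYP77A6* (-0.45), *ABCG13* (-0.39) and *DCR* (-0.28) the largest. The median log2 difference with age was -0.01 for the other KCS genes, -0.07 for wax synthesis and export, -0.22 for the regulators and -0.20 for cutin synthesis, and -0.04 over all genes. The fall of *CER1* (-0.63) was larger in size than that of any called gene of the wax and cutin lists, with *KCS19* near it at -0.60. Among the regulators *MYB106* fell by more (-0.73), and these differences in size were not tested.

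For nitrate, the same lists held *KCS16* (0.33) higher and *KCS19* (-0.16) and *KCS4* (-0.13) lower on 0.2 mM. Among wax synthesis and export genes, *LTPG2* (0.30), *LTPG1* (0.19) and *ACC1* (0.17) were the largest of 4 called higher, and *CER26* (-0.22) and *LACS1* (-0.12) were called lower. Among regulators, *MYB94* (0.26) and *HDG1* (0.12) were higher and *DEWAX* (-0.31), a repressor of wax genes including *CER1*, was lower. In cutin synthesis *BDG1* (0.10) was higher and 5 were lower, led by *ABCG13* (-0.40), *CYP86A4* (-0.23) and *DCR* (-0.17). In all, 3 of 12 other KCS genes, 6 of 15 wax synthesis and export genes, 3 of 8 regulators and 6 of 12 cutin genes were called. Over all genes, 41.7% were called for nitrate and 21.6% were called higher. The medians of these 4 lists lay between -0.12 (cutin synthesis) and 0.02 (wax synthesis and export), against 0.01 over all genes. Of 9 ABA-responsive genes only 3 were above the filter, where *COR15A* (-1.74), *RD29A* (-1.40) and *ABI1* (-0.81) fell with age, and *RD29A* (-1.02) and *COR15A* (-0.77) were lower on 0.2 mM averaged over the days. The days went opposite ways for *COR15A*, which was called higher on 0.2 mM at 16 days (0.76 in wild type and 0.66 in *nrt1.13*) and lower at 25 days (-2.39 and -2.12). *RD29A* was at 0.40 and 0.16 at 16 days, neither called, and at -2.42 and -2.21 at 25 days, both called. Between the genotypes, *ABCG13* (-0.27, adjusted *P* = 0.028) and *RD29A* (-0.28, adjusted *P* = 0.015, both limma) were lower in *nrt1.13*. They were 1 of 12 cutin genes and 1 of 3 ABA-responsive genes tested. Of the others, 0 of 12 KCS genes, 0 of 15 wax synthesis and export genes and 0 of 8 regulators were called, against 1.70% of all genes.

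**Figure D4:**
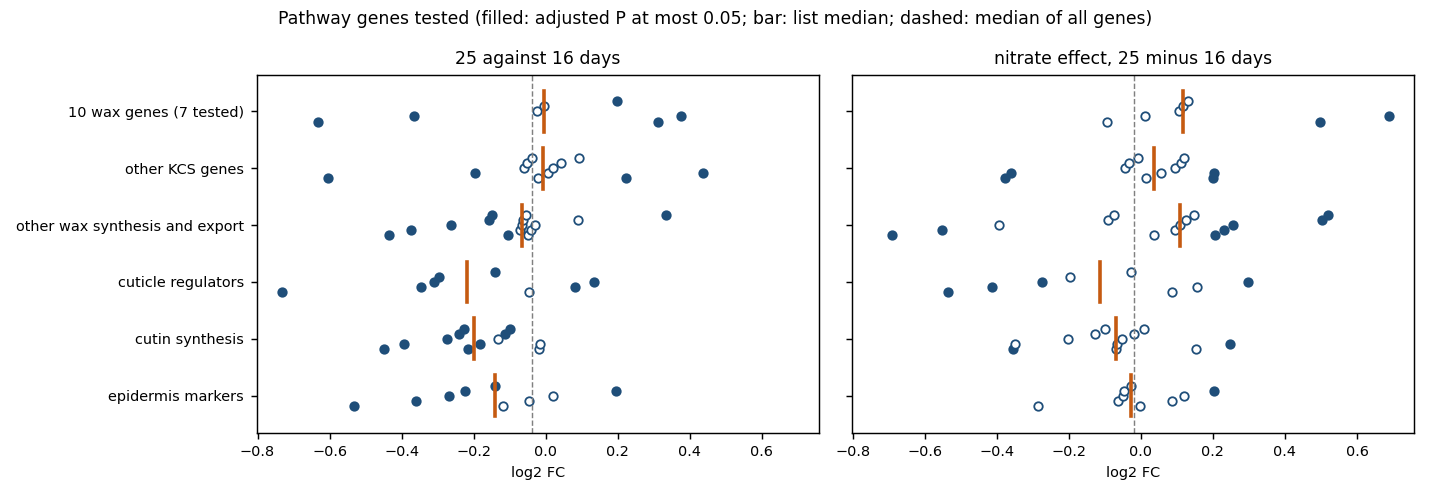
Log2 FC (horizontal axes) of the tested genes in the wax list and 5 related lists, for 25 against 16 days and for the change of the nitrate effect between the days, with filled points for an adjusted *P* of at most 0.05, an orange bar for the list median and a dashed line for the median of all genes. With age the medians of cuticle regulators (-0.22) and cutin synthesis (-0.20) lay left of that of the 7 wax genes (-0.01), and *ATML1*, *PDF2* and *KCS10* are each in the epidermis list and in another.

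The change of the nitrate effect between the days ran in both directions among these genes, which were looked at after their values were seen. The largest in size were those of the ABA-responsive genes *COR15A* (-2.97) and *RD29A* (-2.60), called lower with *ABI1* (-0.35), all 3 that were tested. In the cuticle lists, *LACS2* (0.52) and *CER7* (0.50) were the largest called higher, and *CER26-like* (-0.69), *CER26* (-0.55) and *MYB106* (-0.54) the largest called lower. Against 47.1% of all genes called and 21.7% called higher, it was called for 7 of 15 genes of wax synthesis and export (5 higher), 4 of 8 regulators (1 higher), 4 of 12 other KCS genes (2 higher) and 2 of 12 cutin genes (1 higher).

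The genes most like *KCS1* over the 24 libraries were *ARR7* (Pearson *r* = 0.916), a type-A cytokinin response regulator, *PME44* (0.884), a pectin methylesterase gene, AT1G04680 (0.881), AT4G21520 (0.873) and AT5G52820 (0.867). These values share the differences between the groups, that of the genotypes included. By deviations from the group means, which leave 16 degrees of freedom, the 5 most like were *GPAT4* (0.874), AT5G41140 (0.790), *CAT2* (0.789), AT5G45950 (0.771) and *ABCG11* (0.771). *GPAT4* takes part in cutin synthesis and *ABCG11* encodes a transporter that exports wax and cutin precursors. Among the 7 wax genes, the deviations of *KCS1* and *CER2* (0.66), *CER6* and *CER2* (0.61) and *KCS1* and *CER6* (0.49) were the most alike, and those of *KCS2* and *CER6* (-0.47) the least. All these correlations are descriptions over plants that share library depth and scaling.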

How the data were processed

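The authors deposited 1 signal value per gene and library under the name CPM. They trimmed read pairs in CLC Genomics Workbench, aligned them to TAIR10, kept unique alignments and scaled the counts per library. The submitters' processing notes name bcl2fastq 2.17.1.14. The columns sum to 968394 to 1038371, so a further factor is in the values. All values (100%) were whole multiples of 1 step per library within 0.01 read, which gave the reads.

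Here log2(CPM + 0.1) was fitted with limma 3.58.1 in R 4.3.3 (lmFit, eBayes with a trend), with 8 group means, 24 libraries and 16 residual degrees of freedom. The filter, a CPM of 2 in every library, left 15108 genes for BH adjustment. A two-sided exact permutation test served the 3 genes below the filter. The pseudocounts of 1 and 0.5, other filters, median-ratio and quantile scaling, limma without trend, edgeR 4.0.16 and DESeq2 1.42.0 run on these reads, a block for the replicate number, the FC limit and leaving out each library were tried. The analysis was tested on simulated data.

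The genes, lists and tests were chosen with earlier results of these data known. The rule for named genes took the 10 wax genes, *NRT1.13*, up to 3 called genes per list and direction in the averaged contrasts of nitrate, day and genotype, and the 5 most like *KCS1* by libraries and the 5 by deviations. Overlapping genes, single markers and genes named for the change of the nitrate effect fall outside it and were chosen after their values were seen. The 3 plants of a group were separate plants. Gene positions, lengths and overlaps came from RefSeq TAIR10.1, and the deposited values carry no coordinates.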

Additional observations from a re-analysis of the deposited data

Results flagged for a closer look

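The effect of nitrate differed between the days for 2 of the 7 wax genes tested, by a direct test of that difference. For *KCS2* the log2 difference between 0.2 and 2 mM KNO3 was larger at 25 than at 16 days by 0.69 (SE 0.20, adjusted *P* = 0.00568 from limma with BH adjustment), and in 34 alternatives it lay between 0.57 and 0.84. For *CER3* it was larger by 0.50 (SE 0.08, adjusted *P* = 9.71e-06, limma), and between 0.44 and 0.53 in the alternatives. The same change was called for 47.1% of all genes. Single plants far from their group were not looked for by a test of outliers, because each group has 3 plants.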

How the results depend on the processing

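No called result changed direction, and the counts of wax genes called were the same with other pseudocounts, median-ratio or quantile scaling, limma without trend, edgeR and DESeq2. Over all genes, edgeR on the recovered reads called 6405 for nitrate, 9126 for day, 277 for genotype and 7095 for the change between the days, against 6303, 9360, 257 and 7119 by limma. Without the filter all 10 wax genes entered, less *KCS1* for genotype. The counts were then 3 for nitrate, 6 for day, 1 for genotype and 3 for the change between the days. In that order, 25.5%, 41.7%, 1.00% and 28.2% of all 25547 genes were called there. With the FC limit of 1.8, with the unadjusted or the adjusted *P*, the counts in the averaged contrasts fell to 0 for nitrate, day, genotype and the change of the nitrate effect between the days. Leaving out each library in turn gave 1 to 2 genes for genotype, where *CER3* was added without replicate 1 of *nrt1.13* at 0.2 mM and 25 days, and left the other limma counts as they were. Of the genes below the filter, leaving out a library gave 1 to 2 with an exact *P* of at most 0.05 for nitrate and 1 to 2 for day. *CER4* passed for nitrate without replicate 1 of any of the 4 groups of 25 days (exact *P* from 0.0255), *WSD1* for day without replicate 1 of *nrt1.13* at 0.2 mM and 16 days (0.0392), and *MAH1* for day without replicate 1 of *nrt1.13* at 0.2 mM and 25 days (0.0435). The replicate block left 2 genes called for nitrate, 5 for day, 1 for genotype, 2 for the change between the days and 0 for both interactions. The deviations of same-numbered plants of different groups had a median *r* of 0.03 over 84 pairs (-0.22 to 0.39). Those of plants with other numbers had a median of 0.002 over 168 pairs (-0.36 to 0.34). No pairing by number was seen over all groups, and a pairing confined to some groups was not tested. Depth limits *MAH1* and *CER4*, the strand of the counting limits *KCS2* and *CER2*, and 3 plants a group limit every comparison within a single condition, where an exact test of 3 against 3 cannot give a *P* below 0.1.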
